A study of Mus musculus with 13 samples.

Results

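The Hoxa cluster and Meis1 were examined in thymic lymphomas of Atm-/- and of Rag2c/c p53-/- mice and in WT thymus. The 8 genes Hoxa3, Hoxa4, Hoxa5, Hoxa6, Hoxa7, Hoxa9, Hoxa10 and Meis1 were taken by symbol from a table of 43629 genes. They were chosen by their measured values in these same 13 libraries, so their levels and differences are given as a description, and no p-value or call is given for them. RNA was sequenced from 5 Atm-/- lymphomas (strain 129S6/SvEv), 5 Rag2c/c p53-/- lymphomas (a mix of C57BL/6 and 129S6/SvEv) and thymuses of 3 WT mice (C57BL/6). Atm-/- mice lack the ATM kinase of the DNA damage response. Rag2c/c p53-/- mice carry a RAG2 recombinase shortened at its C terminus and lack p53. All libraries came from single-cell suspensions, and no drug or other treatment is named in the labels. Ages are not given in the sources used here. The WT libraries were re-used from another series, so genotype, strain, tissue state and series of origin cannot be told apart.

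Hox genes encode homeodomain transcription factors that lie in clusters and are expressed in an order that follows their position. In blood, the Hoxa genes are most active in stem and progenitor cells and are turned down as cells differentiate, thymocytes included. Meis1 belongs to the TALE class of homeodomain proteins, binds DNA together with HOX and PBX proteins, and is known as a partner of Hoxa9 in leukemia.

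The values are normalized counts, which the authors divided by size factors and rounded to integers. Column totals were between 19788898 and 21591289 and so no longer showed depth. From the steps between low values, 1 read was worth an estimated 3.24 normalized counts or less in WT thymus, 0.85 to 2.29 in Atm-/- lymphomas and 0.81 to 3.38 in Rag2c/c p53-/- lymphomas. This corresponds to 6.67 to 39.2 M reads per WT library, 9.23 to 23.6 M per Atm-/- lymphoma and 6.37 to 24.8 M per Rag2c/c p53-/- lymphoma. For WT replicate 1 the estimate lay at the lower limit of the search, under which a single read would round to 0, so its depth and the reads estimated for it are minimum values. The shallowest library of each group was replicate 2. Atm, the gene targeted in one line, was at 1559 to 2274 in WT thymus, 208 to 732 in Atm-/- lymphomas and 439 to 1315 in Rag2c/c p53-/- lymphomas. Trp53 was at 2018 to 5461 in the p53-/- lymphomas and at 4387 to 6341 in WT thymus, so transcripts of the targeted gene were still counted there. Its level did not check the p53-/- label. Rag2 was at 260 to 790 in these lymphomas and at 4199 to 5409 in WT thymus, which does not check a truncation either. Thymocyte genes were present in all libraries, with Cd3e between 7309 and 18552 and Thy1 between 16491 and 40426.

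The Hoxa members lie side by side on the minus strand of chromosome 6 (GRCm38), from Hoxa3 (ENSMUSG00000079560, 52169062 to 52213336) to Hoxa10 (ENSMUSG00000000938, 52231197 to 52240854). Between them lie Hoxa4 (ENSMUSG00000000942, 52189671 to 52191753), Hoxa5 (ENSMUSG00000038253, 52201754 to 52204587) and Hoxa6 (ENSMUSG00000043219, 52206288 to 52208722). Hoxa7 (ENSMUSG00000038236, 52214491 to 52221854) and Hoxa9 (ENSMUSG00000038227, 52223100 to 52231089) follow. Meis1 (ENSMUSG00000020160) is on chromosome 11 from 18879817 to 19018985, also on the minus strand. Some exons are shared with other annotated genes. For Hoxa3, 25.4% of exon bases lie opposite exons of antisense and other genes, and 8.0% are shared with Gm28308 on the same strand. For Hoxa7 the share opposite Hoxaas3 is 20.4%, and for Hoxa4 that opposite Gm29430 is 16%. Of the exon bases of Meis1, 9.8% are shared with Gm37818 on the same strand and 8.5% lie opposite Gm16140. The libraries were strand-specific, but the strand setting of the counting is not given in the sources used here, so reads of these partners cannot be told apart from those of the members.

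Sequences from the 250 bases upstream of the RefSeq start are shown for Hoxa5, Hoxa6 and Hoxa7, the members with the highest levels per exon length in WT thymus, and for Meis1, which kept reads in 9 of 10 lymphomas. They are RefSeq sequences of GRCm38.p6 on the minus strand, read 5′ to 3′, without any annotated exon base, and capitals mark CpG dinucleotides. They span chr6:52204588-52204837 for Hoxa5, chr6:52208723-52208922 for Hoxa6, chr6:52218712-52218823 for Hoxa7 and chr11:19018986-19019219 for Meis1. For Hoxa6, Hoxa7 and Meis1 the bases next to the RefSeq start were left out, as they hold annotated exon. The RefSeq start of Hoxa7 lies inside the annotated span of the gene, which has further starts upstream.
Hoxa5: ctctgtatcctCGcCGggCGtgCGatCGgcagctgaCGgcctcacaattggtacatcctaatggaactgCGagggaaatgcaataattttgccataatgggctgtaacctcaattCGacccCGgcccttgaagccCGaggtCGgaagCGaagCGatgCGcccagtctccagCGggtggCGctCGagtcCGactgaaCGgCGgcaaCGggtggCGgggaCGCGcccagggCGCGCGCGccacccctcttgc
Hoxa6: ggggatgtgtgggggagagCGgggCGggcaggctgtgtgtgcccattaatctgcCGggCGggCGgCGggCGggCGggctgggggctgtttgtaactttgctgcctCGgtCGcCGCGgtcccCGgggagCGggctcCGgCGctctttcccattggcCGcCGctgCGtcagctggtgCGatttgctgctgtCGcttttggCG
Hoxa7: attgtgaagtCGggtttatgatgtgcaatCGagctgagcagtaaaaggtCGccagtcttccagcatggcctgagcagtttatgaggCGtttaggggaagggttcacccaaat
Meis1: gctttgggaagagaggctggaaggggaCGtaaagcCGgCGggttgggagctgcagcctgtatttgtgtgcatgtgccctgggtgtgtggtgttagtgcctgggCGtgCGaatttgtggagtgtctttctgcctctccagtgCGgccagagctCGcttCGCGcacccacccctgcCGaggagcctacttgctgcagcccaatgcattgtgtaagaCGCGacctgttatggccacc
The stretch of Hoxa5 holds 28 CpG in 250 bases and that of Hoxa6 22 in 200 bases, or 11.2 and 11.0 per 100 bases. The stretch of Meis1 has 5.13 and that of Hoxa7 3.57 CpG per 100 bases. The full 250 bases upstream of the RefSeq start were searched on both strands for 4 motifs. TGACAG is bound by MEIS proteins, and 15.9% of the 32851 mouse promoter windows of this length held it. The joint motif of PBX and HOX proteins, TGATTNAT, was in 2.8% of them. The homeodomain core TAATTA was in 4.8% of these windows. TATAAA, the letters of a TATA box, was in 12.4% of all windows. None of the motifs was found for Hoxa5, Hoxa6, Hoxa7, Hoxa9 or Meis1. The window of Hoxa3 held the MEIS motif once. Of 2 windows for Hoxa10, that of the second start held the last of these motifs once, on the opposite strand and in the part of the window farther from the start. Hoxa4 was not matched.

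In WT thymus the Hoxa members differed widely in level. Per kb of exon, Hoxa7 was at 107 ± 13.2 normalized counts, Hoxa5 at 36.8 ± 13.1, Hoxa6 at 16.4 ± 7.62 and Hoxa4 at 14.6 ± 3.22 (SD, n = 3). Hoxa3 followed at 5.43 ± 1.18, Hoxa9 at 1.85 ± 0.72, Meis1 at 1.17 ± 0.79 and Hoxa10 at 0 (SD, n = 3). The ranges of Hoxa7 and Hoxa5 did not overlap, nor did those of Hoxa4 and Hoxa3 or of Hoxa3 and Hoxa9. Hoxa5 and Hoxa6 overlapped, as did Hoxa6 and Hoxa4, and Hoxa9 and Meis1. On this scale the highest levels came from the middle of the cluster. The order depends in part on exon length, which was 874 bases for Hoxa6 and 6014 for Hoxa3. In undivided counts Hoxa7 and Hoxa5 were still highest, with means of 309 and 69. Hoxa3 at 32.7 and Hoxa4 at 23.3 were then above Hoxa6 at 14.3. Hoxa7 alone made up 66.1% to 69.9% of the normalized counts of the 7 Hoxa members in a WT library, summed without regard to length.

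**Figure D1:**
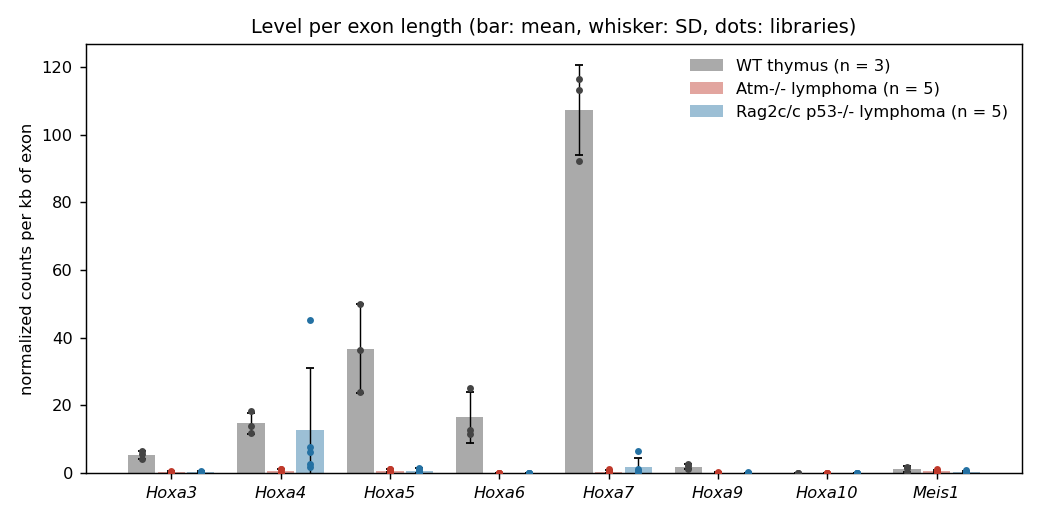
Normalized counts per kb of exon (vertical axis, linear) for the 7 Hoxa members in chromosome order and Meis1. Bars are means, whiskers SD (cut at 0) and dots libraries. Hoxa7 in WT thymus, at 107 per kb, stands above all other bars, and among lymphomas a single library stands out for Hoxa4.

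The Hoxa members were nearly absent from the lymphomas, apart from Hoxa4 and, in 1 library, Hoxa7 in the Rag2c/c p53-/- group. Summed over the 7 genes, WT thymus had 379, 503 and 493 normalized counts. Atm-/- lymphomas had between 4 and 8 (median 4). Rag2c/c p53-/- lymphomas had 9 to 16 in 4 libraries and 92 in replicate 4. Of the 8 members, 6 had every Atm-/- value below every WT value, against 18.7% of the 26629 genes above 0 in any library. For the Rag2c/c p53-/- lymphomas it was 5 of 8, against 16.4%. These counts come from the values that chose the genes, and nothing is read from them. In whole tissue, fewer cells of a type and less RNA per cell cannot be told apart.

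**Figure D2:**
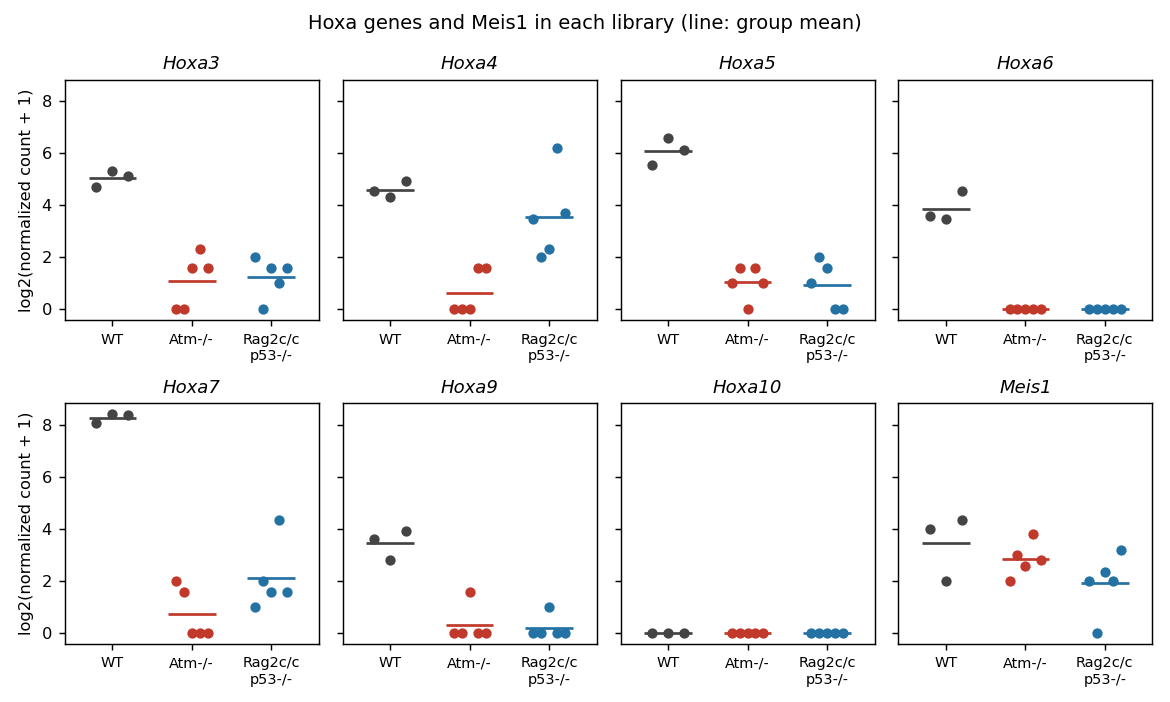
Level of each member as log2(normalized count + 1) on the vertical axis, with a dot per library and a line at the group mean. The 3 WT thymuses lie above both lymphoma groups for Hoxa3, Hoxa5, Hoxa6, Hoxa7 and Hoxa9, while Hoxa4 and Meis1 overlap with WT in at least 1 group.

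Hoxa7, the most abundant member, had 265, 335 and 326 normalized counts in WT thymus replicates 1, 2 and 3. In Atm-/- lymphomas 1 to 5 it had 3, 2, 0, 0 and 0. In Rag2c/c p53-/- lymphomas 1 to 5 it had 1, 3, 2, 19 and 2. Every lymphoma was far below every thymus, and lymphoma 4 of the Rag2c/c p53-/- group was the highest of the lymphomas. Differences on the log2(value + 1) scale are from a limma fit of all 13 libraries, with SE. For Hoxa7 the difference from WT was -7.55 ± 0.74 (SE) in Atm-/- lymphomas and -6.17 ± 0.74 in the Rag2c/c p53-/- group. In estimated reads, 1177 reads in WT thymus stood against 5 in Atm-/- lymphomas and 19 in the Rag2c/c p53-/- group. The ratio of WT to lymphoma per unit of depth was 225 (95% counting interval 96.2 to 695) and 66.7 (42.5 to 111). Without Rag2c/c p53-/- lymphoma 4 the second ratio was 178 (81.3 to 485). Intervals are exact binomial and cover counting error only.

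Hoxa5, which is also known for roles in lung and axial development, had 45, 94 and 68 normalized counts in WT thymus. It had 1, 2, 0, 2 and 1 in the Atm-/- lymphomas and 1, 3, 2, 0 and 0 in the Rag2c/c p53-/- lymphomas. No lymphoma held more than 2 estimated reads of it. The log2 difference from WT was -5.03 ± 0.60 (SE) in Atm-/- lymphomas and -5.15 ± 0.60 in the Rag2c/c p53-/- group. The ratio of WT to lymphoma was 55.5 (21.4 to 205) and 62.4 (24.1 to 231) in reads per depth.

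Hoxa6, between Hoxa5 and Hoxa7, was listed at 11, 10 and 22 in WT thymus and at 0 in all 10 lymphomas. These WT values stand for 62 estimated reads, of which 3 are from the shallow replicate 2. Against a floor of 3 reads over a whole group, Hoxa6 was at least 19.8-fold lower in Atm-/- and at least 22.3-fold lower in Rag2c/c p53-/- lymphomas.

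Hoxa3, a gene required for the formation of the thymus in the embryo, had 25, 39 and 34 normalized counts in WT thymus. The Atm-/- lymphomas had 0, 0, 2, 4 and 2, and the Rag2c/c p53-/- lymphomas 3, 0, 2, 1 and 2. Both lymphoma groups lay below WT with the same mean of 1.6. The log2 difference from WT was -3.95 ± 0.65 (SE) and -3.82 ± 0.65. The ratios were 22.8 (9.48 to 71.4) and 16 (7.87 to 38.0).

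Hoxa4 was the one Hoxa member with a lymphoma value above every thymus. WT thymus had 22, 19 and 29 normalized counts. The Atm-/- lymphomas had 0, 0, 0, 2 and 2, a log2 difference from WT of -3.95 ± 0.83 (SE). Only 3 estimated reads were counted there, a ratio of WT to lymphoma of 31.6 (10.5 to 156). The Rag2c/c p53-/- lymphomas had 10, 3, 4, 72 and 12. All 5 held reads, 4 were below every thymus, and lymphoma 4 was 49 estimated reads strong and above WT. The log2 difference from WT was -1.05 ± 0.83 (SE), the ratio 1.33 (0.982 to 1.81). Without lymphoma 4, the log2 difference was -1.71 and the ratio 2.89 (1.91 to 4.48). Every Rag2c/c p53-/- value was above every Atm-/- value, a log2 difference of -2.90 ± 0.72 (SE) for Atm-/- minus Rag2c/c p53-/-. Without lymphoma 4 this difference was -2.24. The gap between the lymphoma groups rests on the shallow Rag2c/c p53-/- lymphoma 2, whose value of 3 is a single estimated read. Atm-/- lymphoma 5, at 2, held 2 estimated reads, so in reads the groups were not separate.

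Rag2c/c p53-/- lymphoma 4 was the one library with clear reads of Hoxa7 as well as Hoxa4. Hoxa4 made up 78.3% of its Hoxa sum, against 3.78% to 5.88% in WT thymus, so its order of members was not that of the thymus. In the same library Hoxa5, Hoxa6, Hoxa9 and Hoxa10 were at 0 and Hoxa3 at 1.

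Hoxa9, the member most closely tied to leukemia, had 11, 6 and 14 normalized counts in WT thymus. A single estimated read was counted in Atm-/- lymphoma 3 and another in Rag2c/c p53-/- lymphoma 3, and the other 8 lymphomas were at 0. The WT value of 6 in the shallow replicate 2 is 2 estimated reads, so the gap between groups rests on replicates 1 and 3. The ratios were 45.9 (7.85 to 1850) and 51.7 (8.84 to 2083). Hoxa10, its neighbor, was at 0 in all 13 libraries. Neither gene reached a value of 10 in 3 libraries, the filter for the fit, which the other 6 members passed. Hoxa3, Hoxa5 and Hoxa6 met it through the WT thymuses alone. Hoxa4, Hoxa7 and Meis1 also reached 10 in at least 1 lymphoma, and Meis1 met the filter only with Atm-/- lymphoma 4.

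Unlike most Hoxa members, Meis1 was not separate between thymus and lymphomas. It had 15, 3 and 19 normalized counts in WT thymus, where the value of 3 is a single estimated read. The Atm-/- lymphomas had 3, 7, 5, 13 and 6, and the Rag2c/c p53-/- lymphomas 3, 0, 4, 3 and 8. The groups overlapped in every comparison. The overlap with WT rests on the single read of the shallow replicate 2, as WT replicates 1 and 3 lay above every lymphoma. The contrast with the Hoxa members therefore depends on that library. The log2 difference from WT was -0.60 ± 0.73 (SE) in Atm-/- lymphomas and -1.54 ± 0.73 in the Rag2c/c p53-/- group. The ratio of WT to lymphoma in reads per depth was 2.62 (1.6 to 4.43) and 3.57 (2.11 to 6.32). Without WT replicate 2, the log2 difference was -1.32 in Atm-/- lymphomas and -2.26 in the Rag2c/c p53-/- group, and leaving out other single libraries brought it to as little as -0.16 and -1.07. Between the lymphoma groups it was 0.94 ± 0.64 (SE), with the higher mean in Atm-/-.

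A gene was called where the Benjamini-Hochberg adjusted p of the limma fit was under 0.05, the absolute log2 difference at least 1 and the mean at least 10 in a compared group. Of the 15872 genes fitted, 17.0% were called lower and 12.6% higher in Atm-/- lymphomas than in WT. In the Rag2c/c p53-/- group 13.9% were called lower and 9.77% higher than in WT. Between the lymphoma groups 4.33% were called lower and 3.51% higher in Atm-/-. No calls are given for the members, since they were chosen on these contrasts. Both comparisons with WT share the same 3 thymuses.

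Around the cluster, 19 genes of the locus and its flanks were examined, of which 9 were fitted. In Atm-/- lymphomas 2 of the 9 fell against WT and none rose, with a median log2 difference of -0.20 against -0.02 over all genes. Against WT, 2 fell and 1 rose in Rag2c/c p53-/- lymphomas, with a median of -0.42 against -0.02. Between the lymphoma groups none of the 9 was called, with a median of -0.01 against 0.02. Over all fitted genes, 17.0% were called lower and 12.6% higher in Atm-/- lymphomas than in WT. In the Rag2c/c p53-/- group these shares were 13.9% and 9.77%. With only 9 genes, the counts are near these shares and are not a result about the locus. Hoxaas3, the antisense RNA that overlaps Hoxa7 and Hoxa3, had 28, 26 and 18 normalized counts in WT thymus. It had 2, 0, 0, 0 and 1 in Atm-/- and 12, 0, 1, 7 and 3 in Rag2c/c p53-/- lymphomas. Its log2 difference from WT was -4.10 ± 0.77 (SE, adjusted p = 0.000942, limma) and -2.68 ± 0.77 (adjusted p = 0.0152). Hoxaas3 shares 586 exon bases with Hoxa7 and 297 with Hoxa3, and the strand setting of the counting is not given. Its values may hold reads of these members, so its p-values are not evidence separate from theirs. The call in the Rag2c/c p53-/- group was lost without WT replicate 1 or 2, with differences of -2.56 and -2.61, and without the shallowest library of each group, with -2.13.

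Hoxa2, Hoxa11 and Hoxa13 were low everywhere. Hoxa2 had 6, 3 and 5 in WT thymus and at most 2 in a lymphoma. Hoxa11 was at 0 in all 13. Hoxa13, at the other end of the cluster, had 4, 3 and 3 in WT thymus and 0 in all Atm-/- lymphomas, but 7 in Rag2c/c p53-/- lymphomas 3 and 4. Hottip, a long RNA at that end, was at 0 in all libraries.

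Of the 9 fitted genes, 7 had log2 differences below 0 in both comparisons with WT, against 50.6% (Atm-/-) and 50.7% (Rag2c/c p53-/-) of all genes. Both comparisons share the same 3 thymuses. Some of these differences were small, with -0.14 for Skap2, -0.2 for Cbx3 and -0.11 for Nfe2l3 in Atm-/- lymphomas. Snx10, a sorting nexin on the flank, was at 266 to 296 in WT thymus, 16 to 212 in Atm-/- lymphomas and 21 to 74 in the Rag2c/c p53-/- group. It fell in both, with log2 differences of -2.22 ± 0.66 (SE, adjusted p = 0.0156, limma) and -2.73 ± 0.66 (adjusted p = 0.0062). The Atm-/- call was lost without WT replicate 1 or 3 and without the shallowest library of each group. Jazf1, a zinc finger gene, was at 71 to 81 in WT thymus and at 117 to 860 in Rag2c/c p53-/- lymphomas, a rise of 2.64 ± 0.99 (SE, adjusted p = 0.0493, limma). This call was lost in 11 of 17 alternatives. In Atm-/- lymphomas Jazf1 was at 28 and 41 in 2 libraries and at 466 to 611 in the other 3, and it was not called. Hibadh and Tax1bp1 were lower in every lymphoma than in every thymus, but inside the fold threshold. Hibadh was at 3067 to 3518 in WT thymus and 1424 to 3005 in lymphomas, with log2 differences of -0.63 ± 0.22 (SE, adjusted p = 0.0334, limma) and -0.75 ± 0.22 (adjusted p = 0.0172). Tax1bp1 was at 5647 to 5750 in WT thymus and 3074 to 4691 in lymphomas, with differences of -0.52 ± 0.14 (SE, adjusted p = 0.0098, limma) and -0.42 ± 0.14 (adjusted p = 0.0311). Skap2, an adaptor protein gene on the flank, spanned 116 to 520 in lymphomas around 253 to 344 in WT thymus.

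The 28 genes of the Hoxb, Hoxc and Hoxd clusters held little RNA. Only Hoxb4, a gene known for expanding blood stem cells, passed the filter, and it was called in no comparison. It had 42, 32 and 42 normalized counts in WT thymus, 24, 279, 192, 24 and 13 in Atm-/- and 122, 132, 26, 46 and 50 in Rag2c/c p53-/- lymphomas. Its log2 difference from WT was 0.46 in Atm-/- lymphomas and 0.70 in the Rag2c/c p53-/- group. Unlike Hoxa7, Hoxb4 overlapped with WT thymus in both lymphoma groups.

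TALE proteins are the DNA-binding partners of HOX proteins, and 10 of 11 listed genes of this class and their interactor Pbxip1 were fitted. In each lymphoma group 1 rose and 1 fell against WT, with medians of -0.30 (Atm-/-) and -0.31 (Rag2c/c p53-/-) against -0.02 over all genes. These counts are near the shares of all genes called, 17.0% lower and 12.6% higher in Atm-/- lymphomas and 13.9% and 9.77% in the Rag2c/c p53-/- group. Pbx3, which pairs with MEIS1 and HOXA9 in leukemia, was at 31 to 32 in WT thymus. It had 487, 1459, 250, 716 and 233 in Atm-/- lymphomas and 373, 135, 426, 152 and 328 in Rag2c/c p53-/- lymphomas. Every lymphoma was above every thymus. The rise was 3.92 ± 0.56 (SE, adjusted p = 0.000139, limma) and 2.97 ± 0.56 (adjusted p = 0.00134) on the log2 scale, and it was kept in all alternatives. Its direction was opposite to that of the Hoxa7 and Hoxa5 values.

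Pbx4, a member of the same subfamily, was at 300 to 313 in WT thymus. It was at 51 to 244 in Atm-/- lymphomas and 397 to 760 in the Rag2c/c p53-/- group, so that the 3 groups did not overlap. It fell by 1.55 ± 0.41 (SE, adjusted p = 0.0083, limma) in Atm-/- lymphomas. In Rag2c/c p53-/- lymphomas the difference was 0.80 ± 0.41 (adjusted p = 0.142). The lymphoma groups differed by -2.36 ± 0.36 (SE, adjusted p = 0.000964), Atm-/- minus Rag2c/c p53-/-. This was the only TALE gene called between the lymphoma groups, where the median of the list was 0.35.

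Of the closest relatives of Meis1, Meis2 had 14, 13 and 27 normalized counts in WT thymus, 2 to 24 in Atm-/- lymphomas and 0 to 8 in the Rag2c/c p53-/- group. It fell by 2.51 ± 0.87 (SE, adjusted p = 0.0368, limma) in the latter, a call lost without any 1 of the 3 WT replicates, without Rag2c/c p53-/- replicate 2 or 5 and without the shallowest library of each group. Meis3 was at 734 to 884 in WT thymus and at 715 to 1500 in lymphomas. Pbx2 and Pknox1 were at 1270 or more in all 13 libraries.

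**Figure D3:**
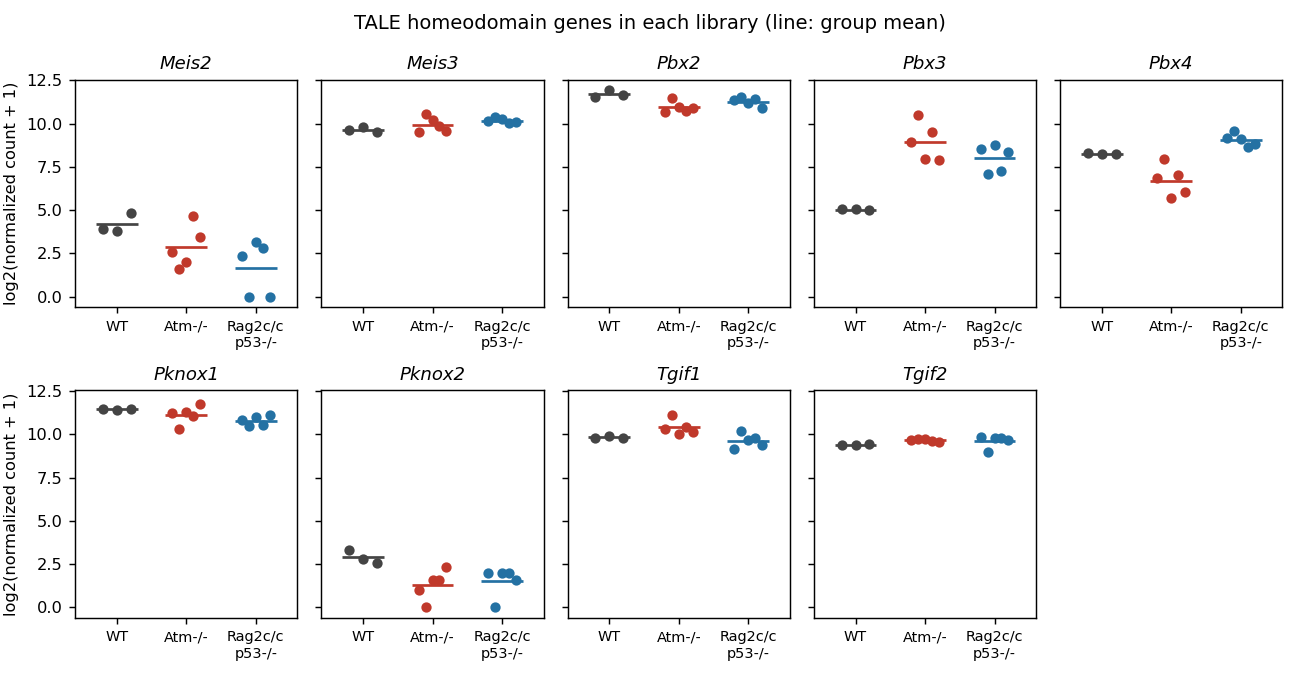
Level of 9 TALE genes as log2(normalized count + 1) on the vertical axis, with a dot per library and a line at the group mean. All 10 lymphomas lie above the thymuses for Pbx3, and the 3 groups are separate for Pbx4.

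Regulators of Hox loci include the MLL complex, which places activating histone marks, the elongation factors it recruits, and Polycomb proteins, which repress. Of 26 listed genes 22 were fitted. In Atm-/- lymphomas 3 fell and none rose, with a median log2 difference of -0.28 against -0.02 over all genes. In Rag2c/c p53-/- lymphomas 2 fell and none rose, also with a median of -0.28 against -0.02. Both counts are below the shares of all genes called lower, 17.0% and 13.9%, so the falls of single genes are not a result about the list. None was called between the lymphoma groups (median -0.07). Ash1l, a histone methyltransferase, had 2982 to 4088 in WT thymus and 665 to 1955 in lymphomas. It fell in both groups, with log2 differences of -1.35 ± 0.29 (SE, adjusted p = 0.00242, limma) and -1.5 ± 0.29 (adjusted p = 0.00159). Kmt2a, which encodes MLL, was at 6875 to 10070 in WT thymus and 2858 to 6700 in lymphomas. The fall of Kmt2a was called in Rag2c/c p53-/- lymphomas (-1.18 ± 0.28, adjusted p = 0.00531, limma), and in Atm-/- lymphomas the difference was -0.98 ± 0.28, just inside the fold threshold (adjusted p = 0.0119). Mllt3 and Aff1, known fusion partners of MLL, fell in Atm-/- lymphomas, with differences of -1.31 ± 0.23 (SE, adjusted p = 0.000559, limma) and -1.22 ± 0.33 (adjusted p = 0.00845). Cdx1, a homeodomain activator of Hox genes, was at 10, 6 and 14 in WT thymus, at 0 in all Atm-/- lymphomas and at 0 to 8 in Rag2c/c p53-/- lymphomas, under the filter. Psip1, Wdr5, Ash2l and Mllt1 were higher in every lymphoma than in every thymus, but inside the fold threshold. Their log2 differences (Atm-/-, then Rag2c/c p53-/-) were 0.595 and 0.767, 0.515 and 0.475, 0.388 and 0.451, and 0.277 and 0.385. Of the 22 fitted genes, 14 had differences below 0 in each comparison with WT, against 50.6% and 50.7% of all genes. The core Polycomb genes Ezh2, Eed and Suz12 were not called in any comparison.

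Of genes known from progenitors and from leukemias with high Hoxa and Meis1, all 19 listed were fitted. In Atm-/- lymphomas 10 fell, none rose and 9 were not called, where 17.0% of all genes fell, and the median was -1.08 against -0.02 over all genes. Without WT replicate 3 the count went from 10 to 4. In the Rag2c/c p53-/- group 8 fell, none rose and 11 were not called, where 13.9% of all genes fell, with a median of -1.31 against -0.02. The list was chosen with earlier results of these data known, so its counts are a description and not independent support. Erg, an ETS factor of stem cells, was at 104 to 123 in WT thymus and at 8 or less in every lymphoma. The differences were -5.10 ± 0.75 (SE, adjusted p = 0.000167, limma) and -5.77 ± 0.75 (adjusted p = 0.000111). Mycn was at 68 to 93 in WT thymus and at 3 or less in 9 lymphomas, with 35 in Rag2c/c p53-/- lymphoma 1. It fell in both groups, with differences of -5.4 ± 0.93 (SE, adjusted p = 0.000531, limma) and -4.45 ± 0.93 (adjusted p = 0.00255). Bcl2, which blocks cell death, was at 2911 to 3157 in WT thymus and 39 to 690 in lymphomas.

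Further genes of this list that fell in both groups were Eya1 (19 to 26 in WT thymus, 0 to 4 in lymphomas), Cd34 (108 to 120 in WT, 1 to 51 in lymphomas), Mef2c and Hhex. The Atm-/- call of Cd34 was lost without WT replicate 2 or 3 and without the shallowest library of each group, and that of Mef2c without WT replicate 3. Both calls of Hhex were lost without WT replicate 1 or 3. Pim1 was called only against Rag2c/c p53-/- lymphomas (-1.05 ± 0.23, adjusted p = 0.00303, limma). Its difference in Atm-/- lymphomas was -0.88 ± 0.23 (adjusted p = 0.00672), inside the fold threshold. The call of Pim1 was lost without WT replicate 2 or Rag2c/c p53-/- replicate 1 or 4. Flt3, which some Hoxa9 and Meis1 leukemias express, fell in Atm-/- lymphomas (-1.63 ± 0.60, adjusted p = 0.0398, limma), but this was lost in 8 of 17 alternatives.

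Between the lymphoma groups, 2 of these 19 genes were higher and 2 lower in Atm-/- lymphomas (median 0.10). Mecom, a zinc finger oncogene, was at 3 to 4 in WT thymus, 4, 14, 70, 26 and 13 in Atm-/- and 0, 0, 1, 0 and 7 in Rag2c/c p53-/- lymphomas. The difference was 3.39 ± 0.73 (SE, adjusted p = 0.00985, limma). Igf1r, a growth factor receptor, also fell in Atm-/- lymphomas against WT (-1.08 ± 0.21, adjusted p = 0.0012, limma), a call lost without WT replicate 3 or Atm-/- replicate 2. It was at 285 to 502 in Atm-/- lymphomas and 740 to 1081 in the Rag2c/c p53-/- group, a difference of -1.18 ± 0.18 (SE, adjusted p = 0.00108). This call was lost without the shallowest library of each group, where the difference was just under the fold threshold. Kit, the stem cell factor receptor, was at 9 to 16 in 3 Atm-/- lymphomas and at 327 and 648 in the other 2, against 152 to 1382 in Rag2c/c p53-/- lymphomas. Its calls were lost in 11 alternatives for each of the comparisons with WT and between lymphomas, and that of Mef2c between lymphomas in 9.

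**Figure D4:**
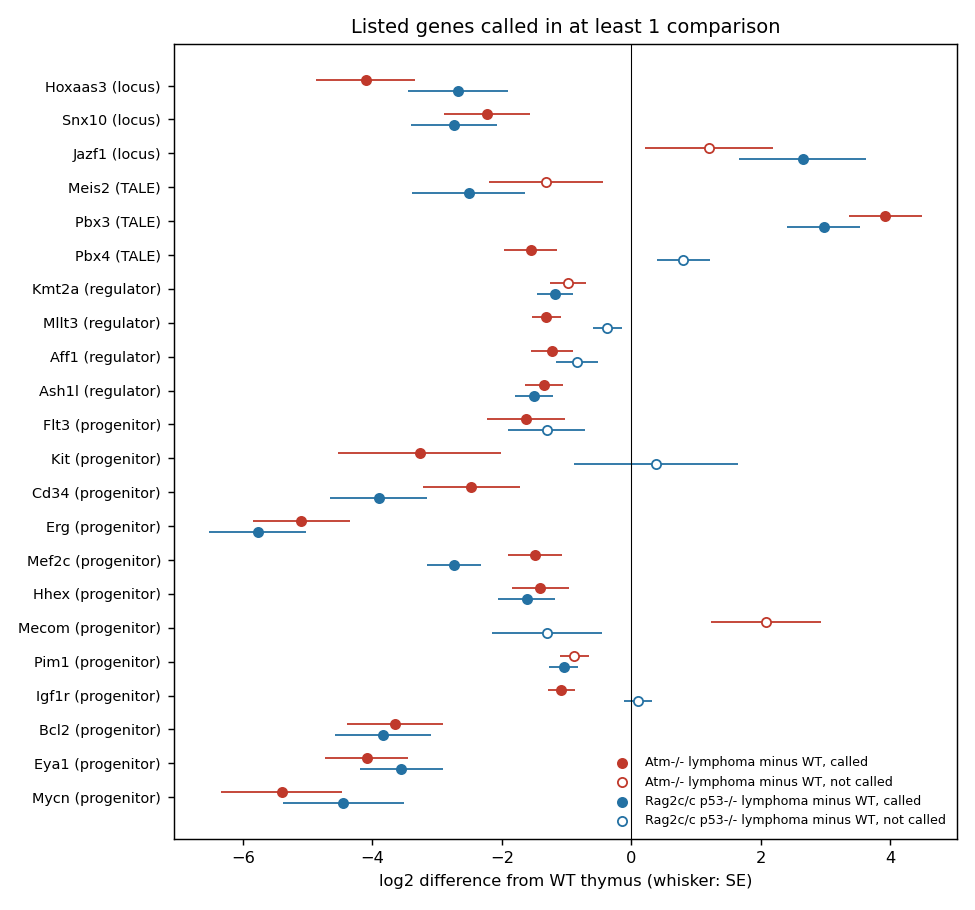
Log2 difference from WT thymus (horizontal axis, whiskers SE) of the 22 listed genes called in at least 1 comparison, red for Atm-/- and blue for Rag2c/c p53-/- lymphomas, filled where called. Most points lie left of 0, with Pbx3 on the right in both groups.

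Some markers of other cell types were lower in the lymphomas and others were higher. Of all fitted genes, 17.0% were called lower and 12.6% higher in Atm-/- lymphomas, and 13.9% and 9.77% in the Rag2c/c p53-/- group. Of 7 fitted genes of thymic epithelium, a tissue that expresses Hoxa3, 4 fell in Atm-/- lymphomas and 5 in the Rag2c/c p53-/- group. Epcam and Ccl25 of this list were not called in either group, and their log2 differences in the Rag2c/c p53-/- group were 0.10 and 0.06. The sum over its 8 listed genes was 786 to 1188 in WT thymus, 189 to 645 in Atm-/- lymphomas and 293 to 1320 in the Rag2c/c p53-/- group. Its defining gene Foxn1 was at 31, 19 and 34 in WT thymus and at 7 or less in every lymphoma. Psmb11, of cortical epithelium, was at 91, 36 and 122 in WT thymus and at 0 in 9 lymphomas and 1 in the other. Of 6 B cell genes 4 fell in Atm-/- lymphomas and 5 in the Rag2c/c p53-/- group, with a sum of 10193 to 14147 in WT thymus and 1381 to 27368 in lymphomas. Ighm, the most abundant of them, was not called in either group. Mpo, of early myeloid cells, was at 207 to 222 in WT thymus and at 25 or less in every lymphoma, while 3 of 6 myeloid genes rose in Atm-/- lymphomas and 1 in the Rag2c/c p53-/- group. The part of these cells in the Hoxa values was not tested.

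Early thymic progenitor genes were mixed. Of 6, 3 fell in Atm-/- lymphomas and 1 in the Rag2c/c p53-/- group, with sums of 6574 to 7863 in WT thymus, 3249 to 20776 in Atm-/- lymphomas and 1780 to 6336 in the Rag2c/c p53-/- group. Of 10 thymocyte genes 4 fell in Atm-/- lymphomas and 2 in the Rag2c/c p53-/- group. Fibroblast genes went the other way, with 4 of 6 risen in each group, and sums of 175 to 182 in WT thymus, 3488 to 15853 in Atm-/- lymphomas and 581 to 1945 in the Rag2c/c p53-/- group. Of 4 fitted endothelial genes none was called in Atm-/- lymphomas and 2 fell in the Rag2c/c p53-/- group. Of 5 fitted erythroid genes 1 rose in each group and 1 fell in Rag2c/c p53-/- lymphomas. In the Rag2c/c p53-/- group, 2 of 10 thymocyte genes and 1 of 6 progenitor genes are near the 13.9% of all genes called lower. Counts of 1 erythroid gene are likewise too small to set apart from the shares of all genes. They are not results about these cell types. The part of these cells in the Hoxa values was not tested either.

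**Figure D5:**
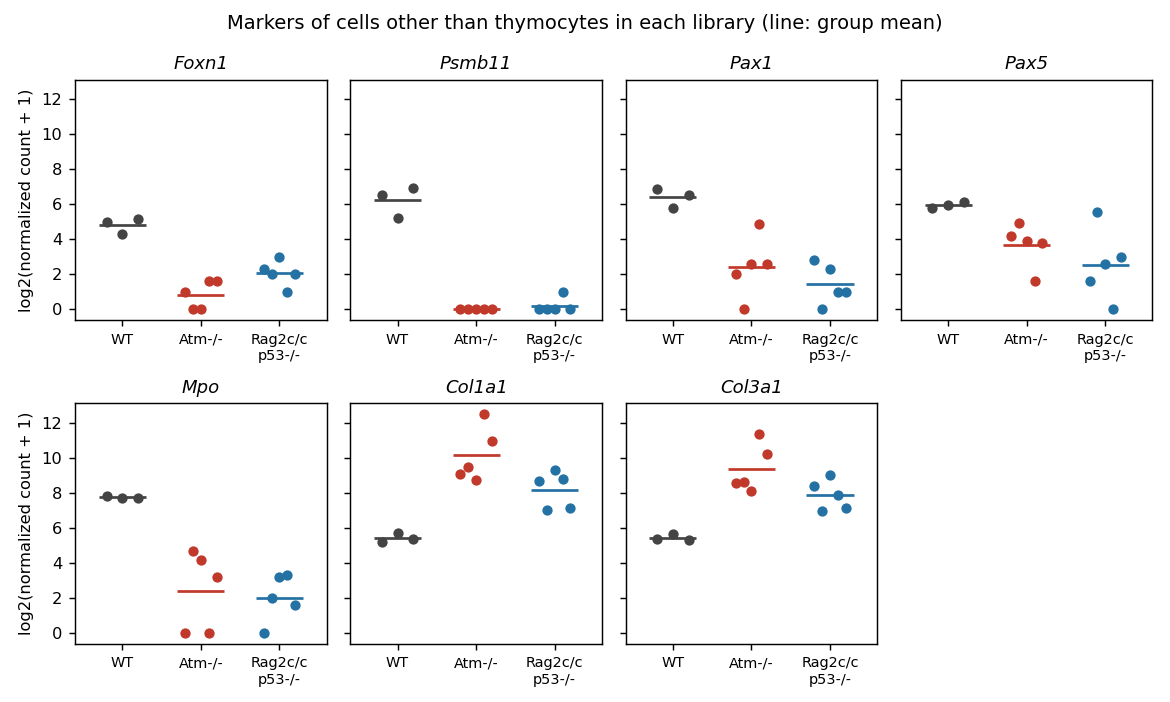
Markers of thymic epithelium (Foxn1, Psmb11, Pax1), B cells (Pax5), early myeloid cells (Mpo) and fibroblasts (Col1a1, Col3a1) as log2(normalized count + 1) on the vertical axis, with a dot per library and a line at the group mean. The genes shown were chosen after their values were seen and do not stand for their whole lists. For the first 5 every lymphoma lies below every thymus, and for both collagens every lymphoma lies above.

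Genes whose pattern across the 10 lymphomas was most like the mean log2 level of the 7 Hoxa members were Lacc1, Sgtb, Brf1, Klc1 and Sptb. Their Pearson r was 0.97, 0.96, 0.95, 0.95 and 0.94 (Spearman rho 0.95, 0.95, 0.94, 0.91 and 0.95, n = 10 lymphomas). All 5 had their highest value in Rag2c/c p53-/- lymphoma 4, the library with the highest Hoxa sum. Brf1 had 9446 normalized counts there and 1026 to 4512 in the other lymphomas. Klc1 had 5541 there and 868 to 3025 in the others. Brf1, Klc1 and Sptb are on chromosome 12, Lacc1 is on chromosome 14 and Sgtb on chromosome 13. Across all 13 libraries their r was 0.37 to 0.66 and none was among the 5 highest. For Meis1 the 5 genes were Sms, Cenpq, Tmem159, Gm20518 and Marcks, with r of 0.94, 0.93, 0.92, 0.91 and 0.91 and rho of 0.89, 0.69, 0.83, 0.82 and 0.83. All 5 had their lowest lymphoma value in Rag2c/c p53-/- lymphoma 2, the shallowest library and the only lymphoma with Meis1 at 0. Sms and Cenpq were also among the 5 most alike across 13 libraries (r of 0.85 and 0.90). These correlations describe sparse values from libraries of unequal depth, and all points of a group share a genotype. Each set of 5 was the top of 15859 genes ranked over 10 lymphomas, so the high r comes in part from that selection.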

How the data were processed

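RNA was measured by polyA-selected, stranded sequencing in 3 WT thymuses, 5 Atm-/- lymphomas and 5 Rag2c/c p53-/- lymphomas, grouped by genotype. Per the labels, the authors used bcl2fastq 1.8.3, STAR 2.4.0g1, Picard and DESeq2 1.6.3 on mm10 (GRCm38). The counting tool, its annotation and its strand setting are not given in the sources used here. The deposited values are a score: counts divided by the size factor of the authors and rounded to whole numbers, which was read from their steps. The table's mean column was not the mean of the 13 libraries, so the authors' fit may have held others. Columns with the authors' fold changes and p-values, lymphomas against WT, were not used.

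Count models could not be applied to rounded values. limma 3.58.1 in R 4.3.3 (trend and robust moderation) was fitted to log2(value + 1) of 13 libraries in 3 groups, for the 15872 genes that reached 10 in 3 or more libraries. p-values were adjusted over these genes by Benjamini-Hochberg. They set a difference between groups against the spread of libraries within groups. Strain and series of origin go with the groups, so the p-values do not cover them. The fit was tested on simulated data with the same spread in every group. Between libraries of a group, Pearson r was 0.979 to 0.996 in WT thymus, 0.92 to 0.967 in Atm-/- and 0.914 to 0.962 in Rag2c/c p53-/- lymphomas. The simulation therefore does not cover the unequal spread of these groups. The worth of 1 read was the maximum likelihood fit to the frequencies of low values, and reads were values divided by it. Intervals have a 95% level and floors 3 reads. Exon lengths were from GENCODE M21. No 2 libraries held the same values.

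The genes, lists and tests were chosen with earlier results of these data known. Named were the 8 members, every listed gene called in at least 1 comparison, and the 5 genes most like the Hoxa mean and Meis1. Other genes of the lists and markers were named after their values were seen. Alternatives were other scalings, filters, a pseudocount of 4, other moderation, no fold threshold, only the compared groups, and leaving out each library. Leaving out the shallowest library of each group was added after seeing the data. Fits with fewer libraries kept the same genes. Values of some listed genes are not reported here.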

Additional observations from a re-analysis of the deposited data

Results flagged for a closer look

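Single libraries far from the other 4 of their group were found in 8 of the 56 group values examined. The rule was a gap to the nearest value of more than 0.71 of the range. A library that differs from 4 equal values always meets it, as for Hoxa9 in both groups and for Eya1. The rate of about 1 in 20 for normal values therefore does not hold for these sparse counts, and no excess is read from the number. In Rag2c/c p53-/- lymphoma 4, Hoxa4 was at 72 and Hoxa7 at 19. Hoxa9 was at 2 in Atm-/- lymphoma 3 and at 1 in Rag2c/c p53-/- lymphoma 3, a single estimated read in each. Mecom was at 7 in Rag2c/c p53-/- lymphoma 5 and Mycn at 35 in Rag2c/c p53-/- lymphoma 1. Pim1 was at 2134 and Eya1 at 4 in Atm-/- lymphoma 4.

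The lymphoma groups differed, by the limma contrast between them, in 5 listed genes. The log2 difference, Atm-/- minus Rag2c/c p53-/-, was -2.36 for Pbx4, -3.65 for Kit, 1.26 for Mef2c, 3.39 for Mecom and -1.18 for Igf1r. For Kit (adjusted p = 0.0457, limma) and Mef2c (adjusted p = 0.0396) the call depended on single libraries.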

How the results depend on the processing

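Of 37 calls of listed genes, 22 were kept in all alternatives run for them and 15 were lost in at least 1. No value changed sign against a called difference. Genes called over the whole table stayed within 1.5 times of the main count, except for 5884 in Rag2c/c p53-/- lymphomas against WT with no fold threshold (3750 with it). Leaving out 1 library gave 3720 to 4679 (Atm-/- against WT), 2804 to 3934 (Rag2c/c p53-/- against WT) and 946 to 1322 (between lymphomas). With a pseudocount of 4, the log2 differences of the Hoxa members from WT shrank by more than the spread between libraries, to between -1.68 and -6.00 in Atm-/- lymphomas for Hoxa3, Hoxa4, Hoxa5, Hoxa6, Hoxa7 and Hoxa9. The other scalings moved no member by more than that spread.

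List counts are small and moved as follows. With no filter, Hox locus regulators had 5 calls (Atm-/- against WT) and 4 (Rag2c/c p53-/- against WT), and the progenitor list 2 between lymphomas. With a minimum of 50, locus neighbours had 1 (Atm-/- against WT) and TALE genes 1 (Rag2c/c p53-/- against WT). With only the compared groups fitted, the progenitor list had 2 between lymphomas. With no fold threshold, locus neighbours had 4 and 5 and regulators 11 and 7 against WT (Atm-/-, then Rag2c/c p53-/-), and TALE genes 2 and regulators 1 between lymphomas. Without the 3 shallowest libraries, locus neighbours had 1 in each comparison with WT, regulators 5 (Atm-/- against WT) and 1 between lymphomas, and the progenitor list 2 between lymphomas.

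Leaving out 1 library gave, against WT, 1 to 2 (Atm-/-) and 1 to 3 (Rag2c/c p53-/-) calls among locus neighbours, 2 and 1 to 3 among TALE genes, 3 to 5 and 2 to 3 among regulators, and 4 to 11 and 7 to 9 in the progenitor list. Between lymphomas it gave 0 to 1 for regulators and 2 to 4 for the progenitor list. Apart from the filter and the fold threshold, which change by construction what is counted, the cause was not tested. Of the 5 genes most like the Hoxa mean, 3 remained among the 5 highest by Spearman and 0 over 13 libraries, and of those most like Meis1, 1 and 2.

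Low counts limit the precision of the members: 1 read was worth 2.29 to 3.38 in the shallowest library of each group, and most lymphoma values are 0 to 4 reads.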
